A study of Mus musculus with 7 samples.

Results

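The genes described here carry the interferon signal from the cell surface to the nucleus: the receptor chains Ifnar1, Ifnar2, Ifngr1 and Ifngr2, the receptor kinases Jak1 and Tyk2, and Stat2 and Irf9, subunits of the transcription factor ISGF3. They were chosen by gene name among the non-control probes of the array, which gave 8 genes measured by 10 probes, out of 34797 gene names in all. All 8 passed the filter on low signal and were among the 18231 genes tested. RNA came from naive CD8 T cells of mouse lymph nodes, sorted as CD8b+ and CD44low and not activated, and each sample was hybridised to 1 single-colour (Cy3) array. The Lck-off group held 4 samples of OT-1het, Rag-/-, Lck-/- cells, taken after 7 days without doxycycline in the diet. This withdrew the inducer of an Lck knock-in. The WT group held 3 samples of OT-1het, Rag-/- cells. Both groups thus carried 1 transgenic T cell receptor specificity, OT-1, and lacked Rag. Lck is the kinase that starts signalling from the T cell receptor. No Lck-/- mice still on doxycycline were analysed here, and the sources used here do not give the diet of the WT mice, so genotype, diet and loss of Lck cannot be told apart. Nor do they give the promoter that drives the inducible Lck, the age of the mice or whether a sample came from 1 animal. The samples are called biological replicates, and p-values measure the spread between them.

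Interferons act through paired receptor chains. Type I interferons (interferon alpha and beta) bind IFNAR1 and IFNAR2, which hold the kinases TYK2 and JAK1, and the signal ends in ISGF3, a complex in which STAT2, a second STAT protein and the DNA-binding subunit IRF9 act together on interferon-stimulated response elements. Interferon gamma binds IFNGR1 and IFNGR2 and signals mainly through STAT dimers on gamma-activated sites. In T cells type I interferon signals set an antiviral state and can restrain or support expansion, depending on their timing.

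The 7 arrays shared 1 slide. Between 43.1% and 49.1% of non-control spots per array were well above background, and 0 spots were saturated. The T cell markers Cd8a, Cd8b1, Cd3d, Cd3e and Cd3g were well above background on every array. Levels are given on the log2 scale, as intensity over the 75th percentile of the same array, each difference is the Lck-off mean less the WT mean on that scale, and ± is the SD. A gene is said to have risen or fallen where its adjusted p is under 0.05 by limma, a linear model fitted to all genes with Benjamini-Hochberg adjustment. Precision is limited by how few arrays there were. The Lck probe, which may lie outside the altered part of the gene and then checks nothing, read 8.52, 8.83, 8.60 and 8.55 in Lck-off and 8.99, 9.02 and 8.98 in WT. It fell by 0.37 (adjusted p = 0.0493), and with single arrays left out in turn it passed the test in 1 of 7 fits, the one without Lck-off replicate 2.

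Of the 8 genes, 3 rose in Lck-off cells, 0 fell and 5 did not pass the test. Those that rose were the ISGF3 subunits Stat2, at 1.95 times the WT level, and Irf9, at 1.60 times, and the ligand-binding chain of the interferon gamma receptor, Ifngr1, at 1.28 times. Over all genes tested, 8.38% were called, 3.80% as higher and 4.57% as lower in Lck-off. Every Lck-off array was above every WT array for 5 of the 8 genes, Stat2, Irf9, Ifngr1, Ifngr2 and Ifnar2, against 9.80% of all genes, and no gene of the 8 showed the opposite order; 21.8% of all genes had no overlap in either direction. The median difference was 0.22 over the 8 genes and -0.01 over all genes. The samples are bulk RNA, in which fewer cells of a type and less RNA per cell cannot be told apart.

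**Figure D1:**
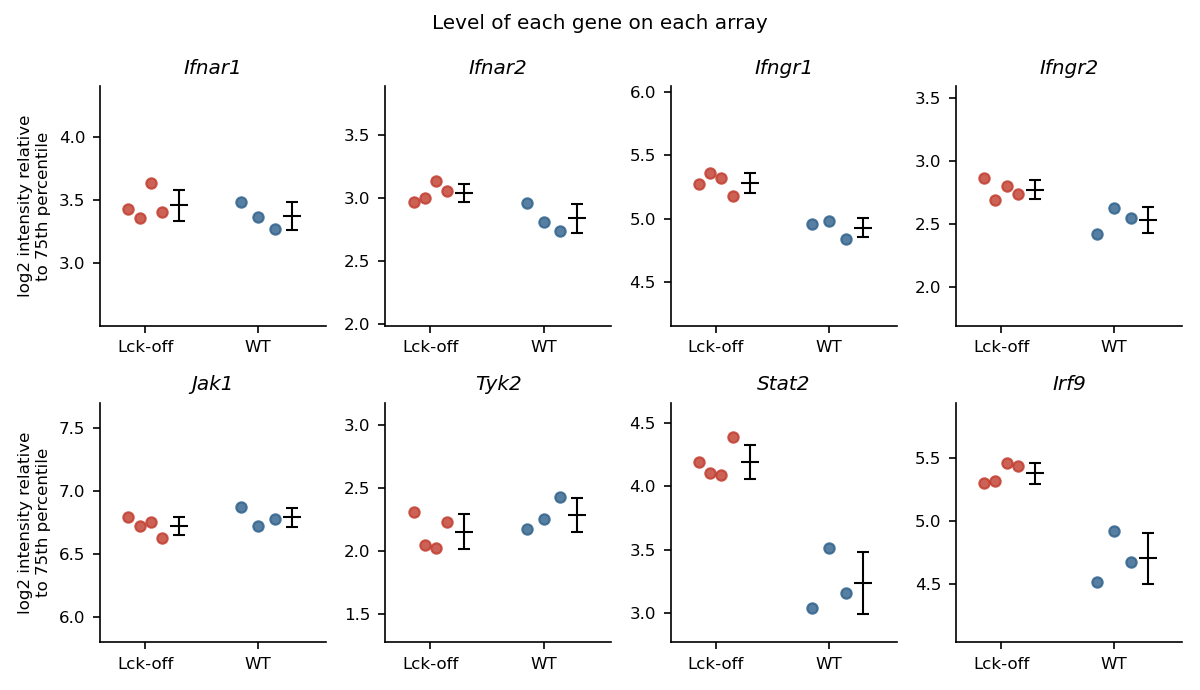
Level of each of the 8 genes on each array, on the log2 scale over the 75th percentile of that array (vertical axes, of equal height), with Lck-off arrays left and WT arrays right; black bars give the mean and SD. The groups stand farthest apart for Stat2 and Irf9, and they overlap for Ifnar1, Jak1 and Tyk2.

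The probe sequences are shown because each result rests on which stretch of the gene was measured. Each probe is 60 bases long, and the first 30 bases are given, 5′ to 3′ in lower case, for the genes that rose and for Ifnar1, the gene with 3 probes.
Stat2, base 4330 of its transcript, chr10:127729834-127729893, plus strand: ctgaatagttagaaagaactgttgtcctga
Irf9, base 2483, chr14:56228806-56228865, plus strand: gtcatggaccctaaacctttagaaatgtga
Ifngr1, base 1990, chr10:19329923-19329982, plus strand: atggaacatgttggtggaagcttgtacaat
Ifnar1, base 1536, chr16:91503764-91505350, plus strand: attgatgagtttttctctgagccgccttca
Ifnar1, base 2880, chr16:91506635-91506693, plus strand: cctcactactaccttgtatctcagtctcct
Ifnar1, base 6918, chr16:91510673-91510732, plus strand: gctctacctcaagagactaagagggtgaac
Positions are those of the array files, on mm9. The first Ifnar1 probe spans 1587 bases of the genome, so its 60 bases are split by an intron. The Irf9 probe is assigned to 3 RefSeq transcripts of the gene, and the Ifnar2 and Tyk2 probes to 2 each, so that transcript variants were measured together.

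The interferon genes themselves, the ligands of the pathway, showed no difference that passed the test. Of 15 interferon gene names on the array, 6 did not reach well above background on any of the 7 arrays, among them Ifnb1, the interferon beta gene, and Ifna4. Of the 8 that were tested, 0 changed by limma, with 0 at an unadjusted p under 0.05, and their differences ran from -0.41 to 0.83. The highest was that of Ifng, the interferon gamma gene, named here after its values were seen. Ifng read -5.11, -0.56, -2.12 and 0.03 in Lck-off and -3.89, -2.25 and -2.16 in WT (difference 0.83, SE 1.20, adjusted p = 0.775). It was well above background on 3 of 4 Lck-off and 2 of 3 WT arrays, and its spread within the Lck-off group was larger than the difference. Interferon alpha genes are near-identical copies of each other, so single members cannot be told apart by these probes with certainty.

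For the type I receptor no difference passed the test. Ifnar1, the chain that holds TYK2, read 3.43, 3.36, 3.64 and 3.41 in Lck-off and 3.49, 3.37 and 3.27 in WT at its brightest probe. The groups overlapped, at 3.46 ± 0.12 in Lck-off (n = 4) and 3.38 ± 0.11 in WT (n = 3). The difference was 0.08 (SE 0.10, 95% confidence interval -0.14 to 0.31), an Lck-off level between 90.7% and 124% of WT (adjusted p = 0.705 by limma). In an exact two-sided permutation test, 16 of 35 splits gave a difference as large (p = 0.457).

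The other Ifnar1 probes gave small differences of both signs. At base 2880 the levels were 0.40, 0.19, 0.25 and 0.28 in Lck-off against 0.08, 0.09 and 0.10 in WT, with no overlap. That difference was 0.19 (SE 0.08), with an adjusted p of 0.212 in a limma fit of all 25578 probes, of which 7.33% were called, 3.46% as higher. At base 1536 they were -1.17, -1.36, -1.38 and -1.30 in Lck-off and -1.40, -1.13 and -1.28 in WT, and overlapped. There the difference was -0.03 (adjusted p = 0.914 in the fit of all probes).

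Ifnar2, the chain that binds type I interferon most tightly and holds JAK1, read 2.97, 3.00, 3.13 and 3.05 in Lck-off and 2.96, 2.81 and 2.74 in WT. Every Lck-off array was above every WT array, by little between Lck-off replicate 1 and WT replicate 1. The difference was 0.20 (SE 0.08, 95% confidence interval 0.01 to 0.39) and did not pass the test (adjusted p = 0.216 by limma). The exact two-sided permutation p was 0.0286, the smallest that 35 splits can give.

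Of the interferon gamma receptor, the ligand-binding chain rose and the signalling chain did not pass the test. Ifngr1 read 5.27, 5.36, 5.32 and 5.18 in Lck-off and 4.96, 4.98 and 4.84 in WT. Every Lck-off array lay above the WT arrays, at 5.28 ± 0.08 (n = 4) against 4.93 ± 0.07 in WT (n = 3). The difference was 0.35 (SE 0.08), or 1.28-fold with a 95% confidence interval of 1.13 to 1.45, with an adjusted p of 0.0312 by limma and an exact permutation p of 0.0286. It was among the smaller rises of the experiment, at rank 661 of 693 genes called higher. The call was lost in each of the 7 fits with a single array removed (adjusted p = 0.0504 to 0.101 by limma), where the difference lay between 0.31 and 0.39. It was also lost when slide row entered the model (0.35, adjusted p = 0.0593). Within row 1 of the slide, which held Lck-off replicates 2 and 3 and WT replicate 3, the difference was 0.50, and within row 2 it was 0.25.

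Ifngr2, the chain that joins the complex to start the signal and holds JAK2, read 2.87, 2.69, 2.80 and 2.74 in Lck-off and 2.42, 2.63 and 2.55 in WT. No Lck-off array fell below a WT array. The difference was 0.24 (SE 0.08, 95% confidence interval 0.05 to 0.43), with an adjusted p of 0.141 by limma and a two-sided exact permutation p of 0.0286.

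The kinases showed lower means in Lck-off that did not pass the test. Jak1, which serves both interferon receptors, read 6.79, 6.72, 6.75 and 6.63 in Lck-off and 6.87, 6.72 and 6.78 in WT. The arrays of the groups interleaved, and the difference was -0.07 (SE 0.07, 95% confidence interval -0.24 to 0.10, adjusted p = 0.678). Tyk2, the kinase of the type I receptor, read 2.31, 2.05, 2.02 and 2.23 in Lck-off and 2.17, 2.25 and 2.43 in WT. These overlapped too, with a difference of -0.13 (SE 0.11, adjusted p = 0.567) and a 95% confidence interval of -0.38 to 0.12. The Tyk2 difference differed in sign between the slide rows, at -0.39 in row 1 and 0.06 in row 2.

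**Figure D2:**
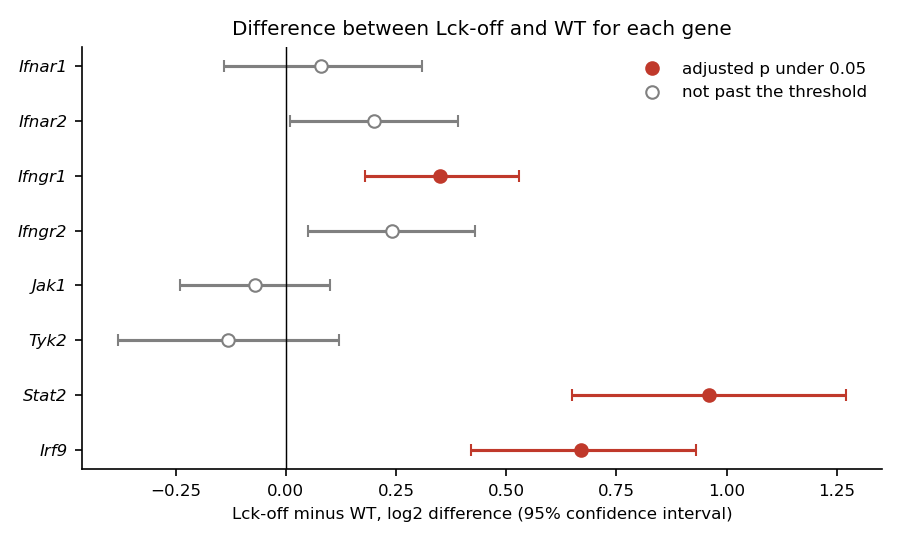
Lck-off minus WT difference of each of the 8 genes on the log2 scale (horizontal axis) with its 95% confidence interval; filled red points are past an adjusted p of 0.05 by limma, open grey points are not. Stat2 (0.96), Irf9 (0.67) and Ifngr1 (0.35) are past the threshold, and the intervals of Ifnar1, Jak1 and Tyk2 include 0.

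Both measured ISGF3 subunits rose. Stat2, which docks at the activated receptor and carries the activation domain of the complex, read 4.19, 4.11, 4.09 and 4.39 in Lck-off and 3.04, 3.51 and 3.16 in WT. The lowest Lck-off array, replicate 3, stood well above the highest WT array, replicate 2. The means were 4.20 ± 0.14 in Lck-off (n = 4) and 3.24 ± 0.25 in WT (n = 3). The difference was 0.96 (SE 0.13), or 1.95-fold with a 95% confidence interval of 1.57 to 2.42, with an adjusted p of 0.00531 by limma and an exact permutation p of 0.0286. Stat2 was at rank 238 of the 693 genes called higher.

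Irf9, which gives ISGF3 its DNA contact, read 5.30, 5.32, 5.46 and 5.44 in Lck-off and 4.52, 4.92 and 4.68 in WT. The groups did not overlap, at 5.38 ± 0.08 in Lck-off (n = 4) and 4.71 ± 0.20 in WT (n = 3). The difference was 0.67 (SE 0.11), or 1.60-fold with a 95% confidence interval of 1.34 to 1.90, with an adjusted p of 0.00957 by limma, an exact permutation p of 0.0286 and rank 385 of 693. Both calls held in each of the 7 fits with a single array removed, where the difference ran from 0.86 to 1.10 for Stat2 and from 0.58 to 0.78 for Irf9. With slide row in the model the differences were 0.99 for Stat2 and 0.67 for Irf9. Within row 1 they were 0.94 for Stat2 and 0.70 for Irf9, and within row 2 they were 1.02 and 0.66, and neither gene was called within a row alone. The Irf9 call was also lost with no filter on dim probes (0.67, adjusted p = 0.0520 by limma), and both calls were lost with the replicate number as a block (adjusted p = 0.0674 for Stat2 and 0.0990 for Irf9).

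WT replicate 2 was the highest WT array for both subunits. Its levels were 0.27 for Stat2 and 0.21 for Irf9 above the WT mean, while WT replicate 1 was lowest at -0.20 and -0.19. The same order held for the median of 26 type I interferon-induced genes, which stood 0.66 above its WT mean in WT replicate 2, 0.13 above it in WT replicate 3 and at -0.78 in WT replicate 1. WT replicate 2 was also the highest WT array by the median of the dendritic cell markers described below (0.64, against -0.86 and -0.93). So it was for the macrophage, monocyte and neutrophil markers (-1.53, against -2.12 and -2.08) and for the NK cell and CD4 T cell markers. It was not for the B cell, stroma and naive CD8 T cell markers. The part of other cells in the order of the WT arrays was not tested. Without WT replicate 2 the differences were the largest of those 7 fits, at 1.10 for Stat2 and 0.78 for Irf9. In Lck-off the arrays were closer together: Stat2 stood 0.85 to 1.16, Irf9 0.60 to 0.75 and the list median 2.61 to 2.96 above the WT means.

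**Figure D3:**
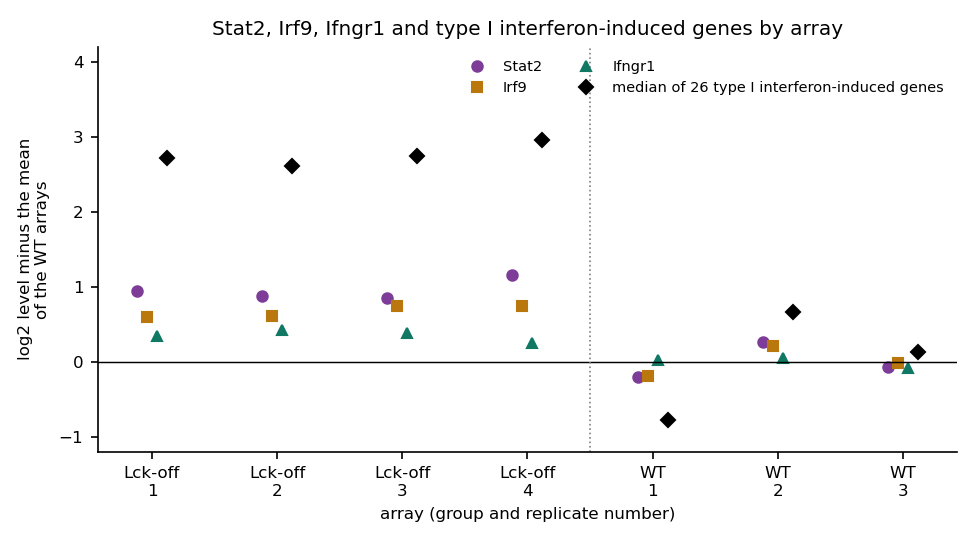
Levels on each array minus the mean of the WT arrays, on the log2 scale (vertical axis), for Stat2, Irf9, Ifngr1 and the median of 26 type I interferon-induced genes; Lck-off arrays are left of the dotted line and WT arrays right. The Lck-off arrays lie together, and among the WT arrays replicate 2 is highest and replicate 1 lowest for Stat2, Irf9 and the list median.

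The genes that ISGF3 is known to switch on rose as well. Of 26 type I interferon-induced genes on the array, 26 rose, with a median difference of 2.18, while 3.80% of all genes tested rose. The lists here and below were chosen with earlier results of these data known, so their counts are descriptions only. The 25 genes measured in both groups had differences of 0.93 to 4.52. Ifi44, chosen for mention after its values were seen, was well above background on 4 of 4 Lck-off arrays and 0 of 3 WT arrays. Its Lck-off level was at least 21.6-fold higher than in WT, a bound from the faintest probes well above background. With Ifi44 at that bound the median was also 2.18. Its call, counted among the 26, used the WT values as read, below background (adjusted p = 0.000955 by limma). It passed the filter on low signal through the Lck-off arrays alone. Mx1, an antiviral GTPase, read 4.36, 4.18, 4.52 and 4.79 in Lck-off and -0.44, 0.54 and -0.25 in WT, a difference of 4.52 (SE 0.25, adjusted p = 0.000305). Mx2, a relative of Mx1, rose by 3.11. Isg20, which encodes an exonuclease, rose by 2.15, and Ifit2, whose product binds foreign RNA, rose by 1.89.

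Genes induced mainly by interferon gamma changed in part. Of 17 tested, 9 rose, 0 fell and 8 did not pass, with a median of 0.58; many of them also respond to type I interferon. Socs1, an inhibitor of JAK kinases, rose by 1.24, Cd274, the gene of the checkpoint ligand PD-L1, by 1.17, and the guanylate-binding protein genes Gbp2 and Gbp4 by 1.06 and 0.72. Irf1, a direct target of the interferon gamma receptor, read 6.59, 6.61, 6.57 and 6.57 in Lck-off and 6.26, 6.60 and 6.36 in WT, and did not pass (0.18, adjusted p = 0.327). Irf1 was named after its values were seen.

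Some genes listed as inhibitors of interferon signalling rose too. Of 13 tested, 4 rose, 1 fell and 8 did not pass, with a median of 0.03. Usp18 is also in the list of type I induced genes and Socs1 in that of interferon gamma. Usp18, which displaces JAK1 from IFNAR2, read 5.34, 5.59, 5.54 and 5.70 in Lck-off and 1.28, 2.71 and 2.14 in WT. It rose by 3.50 (SE 0.30, adjusted p = 0.00102), and here too WT replicate 2 was the highest WT array. Cish rose by 1.79, Socs1 by 1.24 and Socs3 by 0.92, all genes of the suppressor of cytokine signalling family. Members of this family act on several cytokine receptors, and whether Cish acts on interferon signalling in these cells was not tested. The Socs3 call was lost without WT replicate 1 (0.87, adjusted p = 0.0582) or WT replicate 2 (0.87, adjusted p = 0.0624). The gene that fell, outside the rule for named genes, was the phosphatase gene Ptpn6 (SHP-1), by 0.68 (adjusted p = 0.0209). The PIAS genes, whose products bind activated STAT proteins, did not pass, with differences of 0.22 for Pias1, -0.10 for Pias2, -0.47 for Pias3 and 0.03 for Pias4.

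The remaining kinases and STAT genes, which serve other cytokine receptors, did not pass. Of the 7 tested (Jak2, Jak3, Stat3, Stat4, Stat5a, Stat5b and Stat6) 0 changed by limma, with 0 at an unadjusted p under 0.05, and their differences lay between -0.23 and 0.09. Jak2, the partner of IFNGR2, read 3.72, 3.65, 3.60 and 3.58 in Lck-off and 3.42, 3.59 and 3.64 in WT. Of 14 cofactors and genes of receptor turnover 0 changed by limma, with 1 at an unadjusted p under 0.05 (Csnk1a1, -0.22, adjusted p = 0.0919) and differences from -0.27 to 0.40. Whether the ISGF3 subunits differed from these genes was not tested.

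**Figure D4:**
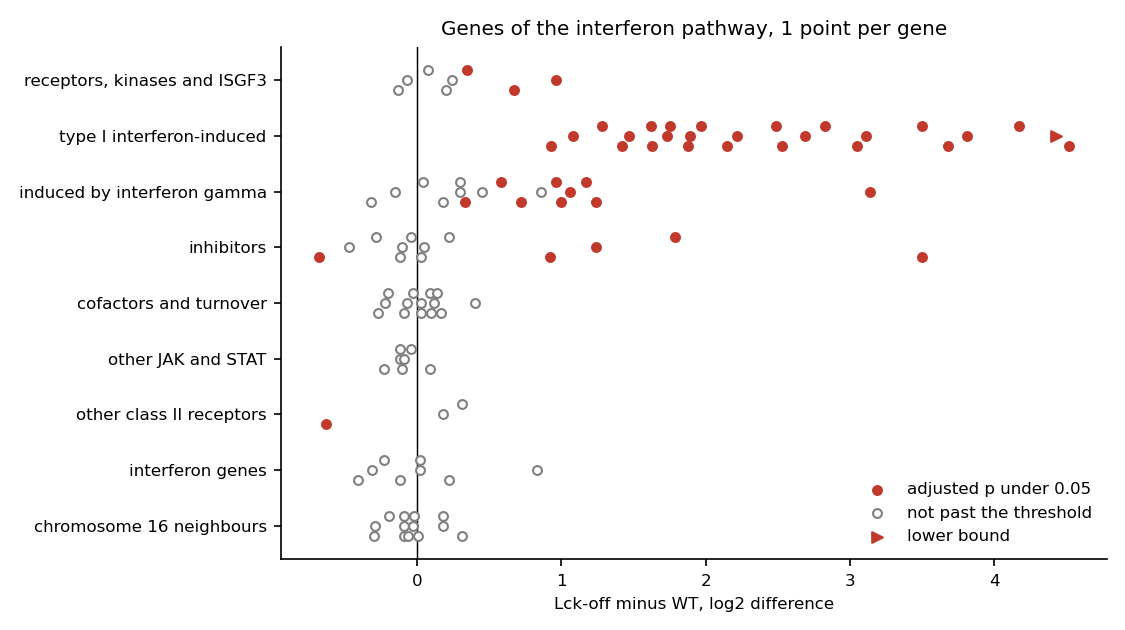
Lck-off minus WT difference on the log2 scale (horizontal axis), 1 point per gene, for the 8 genes (top row) and the lists of pathway genes; filled red points are past an adjusted p of 0.05 by limma, and the triangle marks Ifi44 at its lower bound. All 26 type I interferon-induced genes lie at 0.93 or above, and the rows of other JAK and STAT genes, cofactors, interferon genes and chromosome 16 neighbours hold no filled point.

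Ifnar2, Ifnar1 and Ifngr2 lie in a cluster of class II cytokine receptor genes on chromosome 16, with Il10rb between Ifnar2 and Ifnar1; their probes span 170 kb on mm9. Il10rb, a shared chain of the receptors for interleukin 10 and interferon lambda, read 2.42, 2.65, 2.66 and 2.68 in Lck-off and 2.31, 2.28 and 2.28 in WT. The groups did not overlap, and the difference of 0.31 did not pass (SE 0.08, adjusted p = 0.0712); Il10rb was named after its values were seen. Gart, an enzyme gene of purine synthesis in the same stretch that was also named after its values were seen, had the opposite order. It read 2.54, 2.45, 2.48 and 2.53 in Lck-off and 2.76, 2.71 and 2.92 in WT, with every Lck-off array below every WT array and a difference of -0.29 that did not pass (SE 0.08, adjusted p = 0.0613). Of 13 tested genes in and around the cluster, Il10rb among them, 0 changed by limma, with 2 at an unadjusted p under 0.05, these being Il10rb and Gart, and differences from -0.30 to 0.31. The number of these genes that changed by limma was 1 without Lck-off replicate 1, against 0 with all arrays.

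Of the other class II cytokine receptor genes, 5 of 8 on the array never reached well above background, and of the 3 tested 1 fell. That was Il10ra, the ligand-binding chain for interleukin 10, at 0.16, 0.55, 0.30 and 0.42 in Lck-off and 0.85, 1.08 and 1.02 in WT. It fell by 0.63 (SE 0.11, adjusted p = 0.0155), and the count of called genes in that list was 0 with WT replicate 2, WT replicate 3 or Lck-off replicate 3 removed, and 2 with Lck-off replicate 1 removed.

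Promoter sequence was looked at because Stat2 and Irf9 rose together with known ISGF3 targets. RefSeq windows on GRCm38.p6, from 250 bases before to 50 bases after each start site, were found for all 8 genes. The core of the interferon-stimulated response element, searched as GAAA, any 2 bases and GAAA again on either strand, was in 42.9% of the 21 windows of type I interferon-induced genes, those of 9 of 18 genes, and in 3.44% of all 32851 windows. Among the 8 genes it was in the Stat2 window alone, 222 bases before the start site. The 2 Irf9 windows do not hold these letters, which says nothing of sites elsewhere. The Stat2 sequence before the start site is shown first, then 40-base stretches of Isg15, a ubiquitin-like interferon-induced gene that rose by 1.97 and was named after its values were seen, and of Socs1, with the matches in capitals where neighbouring matches overlap.
Stat2, chr10:128270248-128270497, plus strand: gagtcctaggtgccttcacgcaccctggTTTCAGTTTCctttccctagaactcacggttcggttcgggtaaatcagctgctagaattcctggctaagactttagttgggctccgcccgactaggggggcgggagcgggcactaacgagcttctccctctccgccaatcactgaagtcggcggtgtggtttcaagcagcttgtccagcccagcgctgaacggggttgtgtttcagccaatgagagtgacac
Isg15, chr4:156200872-156200911, minus strand: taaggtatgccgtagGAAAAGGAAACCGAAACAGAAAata
Socs1, chr16:10785595-10785634, minus strand: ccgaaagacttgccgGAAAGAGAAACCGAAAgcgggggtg
Stat2 holds 1 match, Isg15 holds 3 and Socs1 holds 2. The gamma-activated site, TTCNNNGAA, which reads the same on both strands, was in 23.8% of the windows of type I interferon-induced genes, those of 5 of 18 genes, and in 8.30% of all windows. Among the 8 genes it was in those of Ifnar1 and Ifnar2, which held no match of the first motif. A match is a description of the letters and not evidence of binding.

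Each gene was also set beside 10331 other tested genes, those with a current symbol that is no predicted or Rik name, by Pearson's r over the 7 arrays. These values include the step between the groups and are given with no test. Being the highest of 10331 over only 7 arrays, they are high by selection, also for genes that did not pass, such as Jak1. The profiles most like that of Stat2 were those of Txnip (r = 0.999), which encodes a thioredoxin-binding protein, Irf7 (0.994), an interferon regulatory factor, and Tgtp1 (0.992), an interferon-induced GTPase gene. For Irf9 they were Dhx58 (0.995), an RNA sensor gene, Rtp4 (0.994) and Ccrl2 (0.993). For Ifngr1 they were Urm1 (0.991), Nup214 (0.991) and Sh3bp5 (0.990), and for Ifngr2 they were Samd9l (0.986), Trim25 (0.985) and Ndufaf3 (0.981). For Ifnar2 they were Utrn (0.993), Gngt2 (0.982) and Zfp658 (0.982), and for Ifnar1 they were Ids (0.979), Kcnq1ot1 (0.961) and Zfp958 (0.959). Jak1 was nearest to Zfp235 (0.985), Tpp1 (0.978) and Chchd1 (0.964), and Tyk2 to Ece1 (0.981), Ppp2r1a (0.964) and Csnk1e (0.959).

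Markers of other cells moved with the group in part, and their part in the rise of Stat2, Irf9 and Ifngr1 was not tested. Of 10 tested macrophage, monocyte and neutrophil markers 1 rose (C1qb, 0.59, adjusted p = 0.0469), 5 had an unadjusted p under 0.05 and 10 had a positive difference, with a list median of 0.65. C1qc (1.75, adjusted p = 0.0932), Mpeg1 (1.49, adjusted p = 0.0865) and C1qa (1.38, adjusted p = 0.0734) did not pass the limma test, and each was well above background on 4 of 4 Lck-off arrays and 1 of 3 WT arrays; Fcer1g had a difference of 0.90. The list's intensities summed to 52.3 to 64.2 times the array's 75th percentile in Lck-off and 42.1 to 59.2 times in WT. Such a sum follows the brightest gene most, here Itgam (mean 5.61 in Lck-off and 5.47 in WT). In the same list Fcgr3 reached well above background on 0 arrays, Lyz2, Cd14, Fcgr1, S100a8 and S100a9 on 1 Lck-off array each, and Emr1 on 2 Lck-off arrays. Lck-off replicate 2 stood apart for the neutrophil genes S100a9, at -0.07 there and -5.70, -6.45 and -5.79 in the other Lck-off arrays, and S100a8, at -2.10 there and -5.61, -6.31 and -5.73 in the others. In WT S100a9 read -5.92, -5.72 and -6.34, and S100a8 read -5.77, -5.68 and -6.18. Lck-off replicate 2 also stood apart for the NK cell gene Klra8, at -1.34 against -5.38, -6.07 and -5.51 in the other Lck-off arrays. The same held for the NK cell gene Klrb1c (-2.81 against -5.41, -6.09 and -5.55) and the dendritic cell gene Itgax (-1.93 against -5.57, -5.10 and -5.68). Klra8, Klrb1c and Itgax were each well above background on 1 Lck-off array and 0 WT arrays. Without Lck-off replicate 2 the differences were 0.99 for Stat2, 0.69 for Irf9 and 0.33 for Ifngr1, with adjusted p by limma of 0.0154, 0.0239 and 0.0674. Of 9 tested dendritic cell markers 2 rose, Bst2, which interferon also induces, and Ccr9, which T cells also express. In that list 4 had an unadjusted p under 0.05 and 8 a positive difference, with a median of 1.07. The MHC class II genes H2-Ab1 (1.40), H2-Eb1 (1.26) and H2-Aa (1.07) and the invariant chain gene Cd74 (1.12) did not pass. Each of these genes read highest in Lck-off replicate 2. There H2-Ab1 was at 2.25, against 0.96, 0.81 and 0.02 in the other Lck-off arrays and -0.86, 0.64 and -0.93 in WT. The sums were 395 to 462 in Lck-off and 307 to 337 in WT. They follow the brightest genes most, here Siglech (mean 8.1 in Lck-off and 8.0 in WT) and Bst2 (6.67 and 4.94). In that list Clec9a reached well above background on 0 arrays. Of the NK cell markers 1 of 5 rose (Gzma, 2.77) and 2 fell (Nkg7, -0.78, and Eomes, -0.86), all of which CD8 T cells can express, with 3 at an unadjusted p under 0.05 and sums of 172 to 191 in Lck-off and 278 to 296 in WT, with Klrk1 above background on 0 arrays. Of the B cell markers 0 of 3 changed by limma (1 at an unadjusted p under 0.05), with sums of 12.3 to 15.1 in Lck-off and 12.6 to 14.6 in WT, with Ms4a1, Pax5 and Blk above background on 0 arrays. For CD4 and regulatory T cells 1 of 4 rose (Il2ra, at least 7.14-fold higher in Lck-off, above background on 0 WT arrays), with 1 at an unadjusted p under 0.05, Ctla4 above background on 0 arrays and sums of 18.2 to 21.5 in Lck-off and 16.6 to 17.5 in WT, and for stroma 0 of 4 changed by limma (1 at an unadjusted p under 0.05), with sums of 2.11 to 2.93 in Lck-off and 2.01 to 2.19 in WT and Col3a1, Pdpn and Cdh5 above background on 0 arrays. Of the naive CD8 T cell markers 0 of 12 rose and 1, Lck itself, fell, with 4 at an unadjusted p under 0.05 and sums of 2180 to 2350 in Lck-off and 2340 to 2410 in WT.

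**Figure D5:**
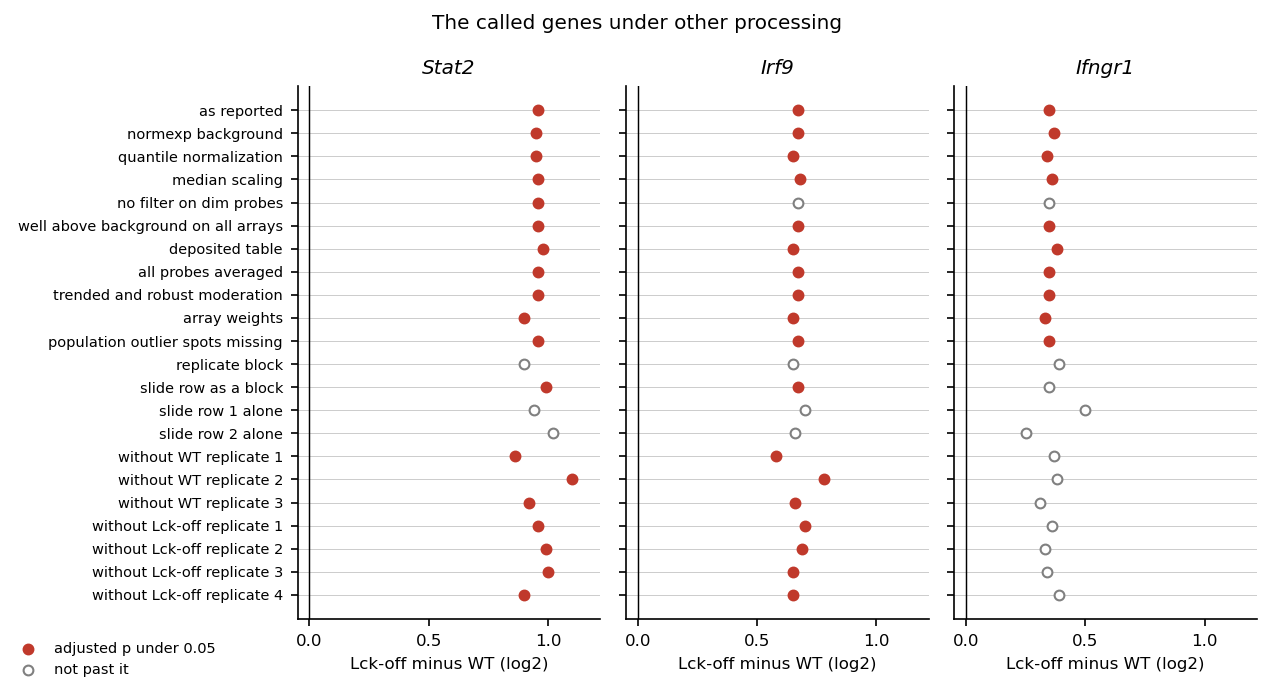
Lck-off minus WT difference on the log2 scale (horizontal axes) of Stat2, Irf9 and Ifngr1 as reported and under each alternative setting (rows); filled red points are past an adjusted p of 0.05 by limma and open grey points are not. Every difference is above 0, Stat2 and Irf9 are filled in every row that leaves out 1 array, and Ifngr1 is open in all 7 of those rows.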

How the data were processed

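Scanner values were produced by Feature Extraction 10.7.3.1, per the file headers, with probes placed on mm9. The deposited processed intensity had its background subtracted and spatial trend removed array by array, without scaling between arrays, per the file headers; the mean spot and local background intensity columns had neither step. The flags and spot types used come from the same software, per the file headers. The deposited series values were taken as log2 from comparison with the scanner values (Pearson's r of 0.953 to 0.963 with the log2 processed intensity, across spots); their array medians were 6.38, 6.38, 6.39 and 6.39 in Lck-off and 6.39, 6.38 and 6.38 in WT. The submitters' processing notes name limma without giving its role.

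Here log2 processed intensities were set relative to each array's 75th percentile, non-uniform spots were dropped, and a probe stayed in where 3 or more of 7 arrays called it well above background (25578 of 55681). The brightest remaining probe stood for its gene, giving 18231 genes, 69.1% of them matched to a current symbol through RefSeq gene names (GRCm38.p6). The groups were compared with limma 3.58.1 in R 4.3.3 (with the package data.table, version 1.17.8), two-sided, without covariates; the fit was tested on simulated data. Intervals are at 95%. Exact permutation tests were two-sided over 35 splits. Where no array of a group measured a gene above background, its level there was bounded by the faintest probe that was. Named genes were all 8 genes with their probes, Lck, up to 4 called genes of smallest p per list and the 3 most alike genes for each of the 8. The genes, lists and rules were chosen with earlier results of these data known. Alternatives were normexp background correction (offset 50), quantile and median scaling, other filters, the deposited series values, averaged probes, trended and robust moderation, array weights, outlier spots removed, blocks by replicate number or slide row, each row alone and each array left out.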

Additional observations from a re-analysis of the deposited data

How the results depend on the processing

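No alternative listed under processing turned the direction of Stat2, Irf9, Ifngr1, Ifngr2, Ifnar2 or Jak1, or of Lck and the genes named from the lists by rule. The cause of a lost call was not tested. Some of the fits had fewer samples, fewer degrees of freedom or more genes tested, as given below. Tyk2 (0.06) and Ifnar1 (-0.01) changed sign within slide row 2, and Ifnar1 (-0.03) at its probe at base 1536, none of them called. With 1 array left out, 2 of the 8 genes were called in each repeat (2 to 2), and differences ran from 0.86 to 1.10 for Stat2, 0.58 to 0.78 for Irf9 and 0.31 to 0.39 for Ifngr1, the last never called. Over all genes 960 to 1405 were called in these repeats, against 1527 with all arrays (with WT replicate 2 removed 960, with WT replicate 3 removed 984, with Lck-off replicate 3 removed 964 and with Lck-off replicate 4 removed 968), 0 to 2 among other class II receptors and 0 to 1 among chromosome 16 neighbours. With no filter on dim probes, which tests more genes, 717 genes and 1 of the 8 were called, and Irf9 (0.67, adjusted p = 0.0520) and Ifngr1 (0.35, adjusted p = 0.174) were not; the inhibitor list then had 3 called genes and other class II receptors 0. The slide row as a block ended the call of Ifngr1 (0.35). Within row 1 alone, with 3 arrays, 105 genes and 0 of the 8 were called (Stat2 0.94, Irf9 0.70, Ifngr1 0.50), with 12 type I induced, 0 interferon gamma-induced, 1 inhibitor and 0 other class II receptor genes. Within row 2 alone, with 4 arrays, 0 genes were called (Stat2 1.02, Irf9 0.66, Ifngr1 0.25), and 0 in each of these lists. Other class II receptors had 2 called genes under normexp, the deposited table, trended and robust moderation and array weights. Chromosome 16 neighbours had 1 under normexp, quantile normalization, probes above background on all arrays and array weights, and 2 under the deposited table and trended and robust moderation, the last of which also called 1 cofactor gene.

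Both groups use the same replicate numbers, and no pairing by number is stated. Deviations from the group means correlated at 0.106, 0.049 and -0.008 for numbers 1, 2 and 3. Not every sample correlated best with its own number. With so few arrays these correlations cannot settle whether the numbers pair the samples. With the replicate block 374 genes and 0 of the 8 were called (Stat2 0.90, adjusted p = 0.0674; Irf9 0.65, adjusted p = 0.0990; Ifngr1 0.39, adjusted p = 0.168), with 4 interferon gamma-induced, 3 inhibitor and 0 other class II receptor genes; the block leaves fewer residual degrees of freedom.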
